A study of Mus musculus with 7 samples.

Results

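The genes described here encode the subunits of the receptors for GABA and glutamate, the main inhibitory and excitatory transmitters of the brain. They were chosen by gene symbol alone, as names in the deposited table that belong to the Gabr, Gabbr, Gria, Grid, Grik, Grin and Grm families. This gave 47 genes out of 50226 gene names, 21341 of which are protein-coding. The set holds 19 GABA-A, 2 GABA-B, 4 AMPA, 5 kainate, 2 delta, 7 NMDA and 8 metabotropic glutamate receptor genes.

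RNA of a tissue labelled cortex, without the organ, was sequenced beside that of liver, kidney, skeletal muscle and 3 fat depots, which were visceral (VAT), subcutaneous (SCAT) and interscapular brown (BAT) adipose tissue. The animals were wild-type mice of 36 weeks, labelled C57BL/6 and named C57BL/6N by the study, on the lean control diet, which the labels call NCD. Libraries were directional and depleted of ribosomal RNA, and each tissue has 1 library, so no difference between tissues has a replicate check and no p-value is given. Levels are FPKM, fragments scaled for transcript length and for the size of the library, which allows genes of different length to be set side by side. The depth behind each value is unknown, because the table holds no fragment counts, and a value of 0 means only that a gene is listed at 0. In bulk tissue, fewer cells of a type and less RNA per cell cannot be told apart.

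GABA-A receptors are chloride channels built from subunits of several families, most often alpha, beta and gamma, whereas GABA-B receptors are obligate pairs of G protein-coupled subunits. Glutamate opens the cation channels of the AMPA, kainate and NMDA type and also acts on G protein-coupled metabotropic receptors. These receptors carry fast and slow synaptic transmission in the cerebral cortex, and some subunits are also known from peripheral tissues.

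Promoter windows illustrate the genes on which the results turn. RefSeq (GRCm38.p6) gives a window of 300 bases, from 250 before to 50 after the transcription start, for 32 of the 47 genes. The windows are written 5′ to 3′ on the strand of the gene, and capitals mark every CpG dinucleotide. Gria2, on the minus strand at chr3:80802786-80803085, was the receptor gene with the highest level in cortex. Gabra4 (minus strand, chr5:71658259-71658558) and Gabrb1 (plus strand, chr5:71657671-71657970) start head to head in one gene cluster and were both at least 4-fold higher in cortex than in any other tissue. Gabbr2 (minus strand, chr4:46991665-46991964) stood out by its level in liver. The rho subunit genes Gabrr1 (plus strand, chr4:33132306-33132605) and Gabrr2 (plus strand, chr4:33062862-33063161) are neighbours that were higher in muscle than in cortex.
Gria2: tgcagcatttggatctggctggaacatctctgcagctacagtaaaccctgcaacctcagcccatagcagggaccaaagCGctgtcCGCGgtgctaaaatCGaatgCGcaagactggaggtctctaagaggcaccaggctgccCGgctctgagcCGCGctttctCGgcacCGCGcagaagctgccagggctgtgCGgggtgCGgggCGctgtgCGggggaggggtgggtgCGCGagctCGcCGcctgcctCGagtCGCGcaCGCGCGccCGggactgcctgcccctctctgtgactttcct
Gabra4: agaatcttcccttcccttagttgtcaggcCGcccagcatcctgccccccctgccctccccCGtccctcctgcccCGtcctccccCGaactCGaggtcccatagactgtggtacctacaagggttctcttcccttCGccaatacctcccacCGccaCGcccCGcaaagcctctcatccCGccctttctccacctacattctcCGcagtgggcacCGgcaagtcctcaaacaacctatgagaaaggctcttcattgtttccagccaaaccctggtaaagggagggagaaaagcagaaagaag
Gabrb1: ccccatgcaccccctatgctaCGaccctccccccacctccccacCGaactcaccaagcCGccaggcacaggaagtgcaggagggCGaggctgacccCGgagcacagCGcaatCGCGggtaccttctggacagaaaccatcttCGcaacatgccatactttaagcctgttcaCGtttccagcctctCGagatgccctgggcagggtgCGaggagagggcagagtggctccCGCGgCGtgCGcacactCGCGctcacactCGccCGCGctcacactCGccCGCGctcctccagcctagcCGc
Gabbr2: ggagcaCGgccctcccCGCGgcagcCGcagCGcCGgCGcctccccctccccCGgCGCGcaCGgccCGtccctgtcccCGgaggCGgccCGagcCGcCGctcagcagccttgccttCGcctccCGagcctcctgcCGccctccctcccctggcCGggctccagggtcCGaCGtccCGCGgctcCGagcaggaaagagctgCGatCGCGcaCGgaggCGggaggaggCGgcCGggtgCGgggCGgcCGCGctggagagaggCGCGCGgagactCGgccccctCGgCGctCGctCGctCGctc
Gabrr1: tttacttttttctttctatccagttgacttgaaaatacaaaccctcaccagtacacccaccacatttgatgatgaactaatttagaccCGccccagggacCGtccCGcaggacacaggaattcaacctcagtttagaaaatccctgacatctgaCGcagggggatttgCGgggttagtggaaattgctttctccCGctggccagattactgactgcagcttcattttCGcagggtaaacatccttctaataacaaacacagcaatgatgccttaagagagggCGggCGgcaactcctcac
Gabrr2: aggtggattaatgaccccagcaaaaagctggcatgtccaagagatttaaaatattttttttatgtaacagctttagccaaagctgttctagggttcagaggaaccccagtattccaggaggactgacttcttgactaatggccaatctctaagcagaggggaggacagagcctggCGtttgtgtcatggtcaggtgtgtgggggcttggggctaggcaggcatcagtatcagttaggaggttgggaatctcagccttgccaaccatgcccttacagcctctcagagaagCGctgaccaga

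Most receptor genes were highest in cortex. Of the 47 genes, 40 had their highest FPKM in cortex, where 18.9% of all protein-coding genes did. To be called enriched in a tissue, a gene needed 1 FPKM or more there and a log2(FPKM + 0.1) that exceeded each of the 6 remaining tissues by 2 or more, which is 4-fold. By this rule 33 genes were enriched in cortex, against a background of 5.74% of protein-coding genes, and 1 gene, Gabrr1, was enriched in muscle, where the background was 2.36%. The other 13 genes were enriched in no tissue, and 8 genes were below 1 FPKM in every tissue. The log2 ratio of cortex over the highest other tissue had a median of 4.48 over the 47 genes and of -0.82 over protein-coding genes, and it ran from 2.04 (Grm8) to 9.72 (Gria2) among the genes enriched in cortex. In cortex, 37 genes reached 1 FPKM and 23 reached 10 FPKM, with a median of 7.29 FPKM beside 1.25 FPKM for protein-coding genes. In the 6 other tissues the median over the receptor genes was between 0 FPKM (BAT) and 0.0732 FPKM (VAT), beside 0.957 to 1.18 FPKM for protein-coding genes. The number of receptor genes listed at 0 was 2 in cortex, 3 in VAT, 7 in SCAT, 15 in liver, 16 in kidney, 17 in muscle and 24 in BAT. The share of all genes listed at 0 was not computed, so this order cannot be read as a trait of the receptor genes.

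**Figure D1:**
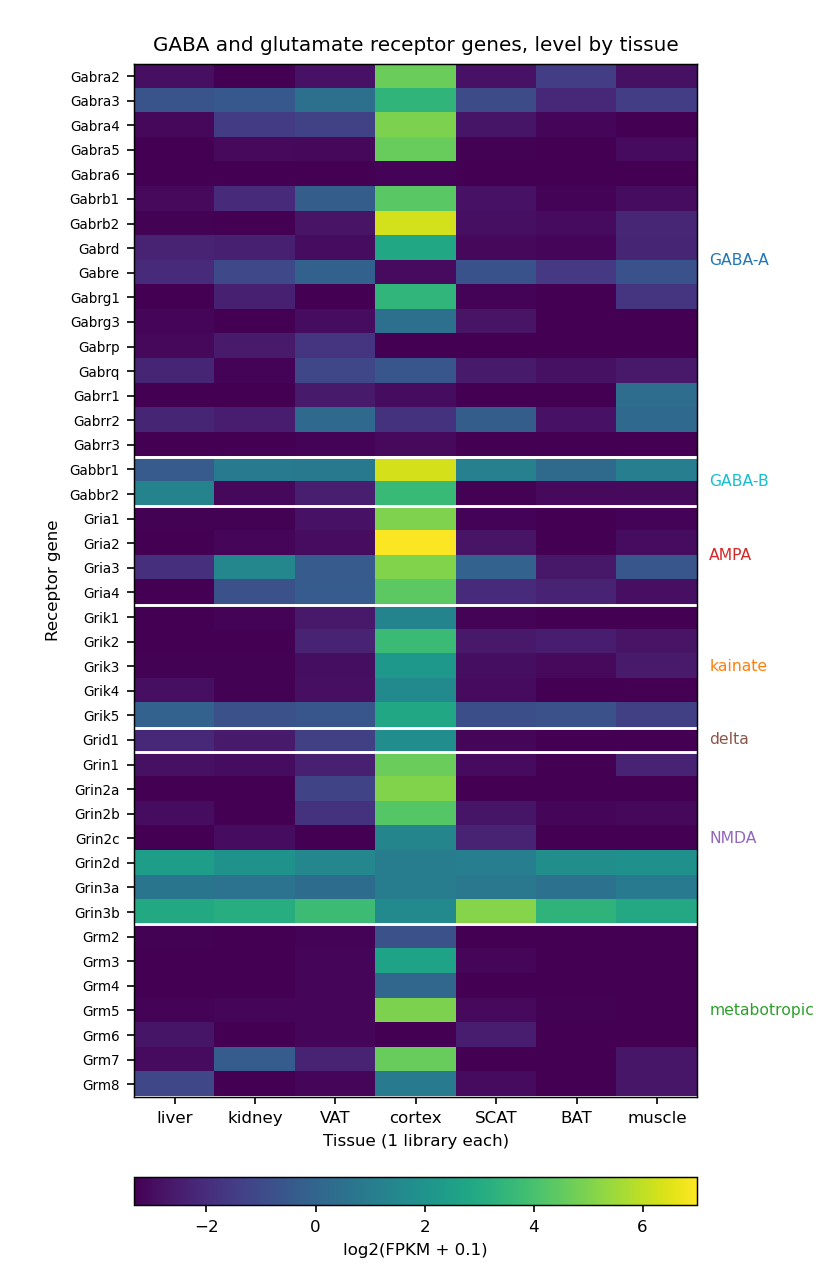
Level of 42 of the receptor genes (rows, grouped by class) in the 7 tissues (columns, 1 library each), as log2(FPKM + 0.1) from dark (low) to yellow (high). Cortex is the brightest column for 35 of them, and the rows that stay bright outside it are those of Grin2d, Grin3a and Grin3b, which were above 1 FPKM in every tissue.

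The tissue labels were compared with marker genes. The neuron markers Snap25, Syt1, Rbfox3, Stmn2 and Map2 were all enriched in cortex, with a summed level of 545 FPKM there and of 1.91 to 3.57 FPKM in the other tissues, and Tubb3 was not measured. The oligodendrocyte markers Mbp, Mog and Mobp were enriched in cortex as well. Of the 4 astrocyte markers only Gfap was (91.5 FPKM in cortex), and their summed level was 132 FPKM in cortex and 152 FPKM in liver, of which Aldh1l1 gave 144 FPKM. Hepatocyte, kidney tubule, brown adipocyte and skeletal muscle markers had their highest summed level in liver, kidney, BAT and muscle. The muscle sum lacks markers with no value in muscle. Adipocyte markers summed to 673 FPKM in BAT, 484 in VAT and 211 in SCAT. Markers of other cell types were high in several libraries as well. Among the hepatocyte markers, Alb had 253 FPKM in VAT and no value in liver, so that the liver sum is without it. Cyp2e1 had 331 FPKM in kidney and 295 in VAT, and Ttr had 195 FPKM in cortex. VAT also held the epididymis markers Crisp1 (1386 FPKM) and Lcn5 (1119 FPKM), and SCAT held the lymphocyte marker Ms4a1 (50.6 FPKM) and the pancreatic acinar marker Ctrb1 (35.9 FPKM). BAT held the skeletal muscle markers Ckm (166 FPKM) and Mylpf (81.9 FPKM).

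GABA-A receptor genes had the highest total of the 7 classes in cortex. The 19 GABA-A genes summed to 374 FPKM in cortex. Of this, delta held 1.86%, theta 0.155%, rho 0.0628% and epsilon 0.0062%, and pi was listed at 0. In the 6 other tissues the summed level was 0.209% (BAT) to 1.37% (VAT) of that in cortex. Of the 19 genes, 12 were enriched in cortex.

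Alpha subunits set the response of the channel to benzodiazepines. Gabra4 had 31.5 FPKM in cortex and at most 0.297 FPKM elsewhere, Gabra2 had 25.8 and at most 0.265 FPKM, and Gabra5 had 24.0 and at most 0.0233 FPKM. These 3 genes were thus separated from every other tissue by log2 ratios of 6.15 or more. Gabra3 was less restricted, with 10.6 FPKM in cortex, 1.30 in VAT, 0.610 in kidney, 0.535 in liver, 0.428 in SCAT, 0.270 in muscle and 0.119 in BAT. Its highest level outside cortex was 12.3% of the cortex level, and the log2 ratio was 2.93. The locus on the annotated strand of Gabra3, with 8.60 FPKM in cortex and 1.74 in VAT, gave 20.2% and a log2 ratio of 2.24. Gabra6, the alpha subunit known from cerebellar granule cells, had 0.0085 FPKM in cortex and 0 in every other library.

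Beta subunits form the GABA site together with alpha subunits. Gabrb2 had 77.5 FPKM in cortex and at most 0.116 FPKM elsewhere. Gabrb1 had 20.7 FPKM in cortex and its next highest level, 0.714 FPKM, in VAT. Both were enriched in cortex, with log2 ratios of 8.49 and 4.67. Among gamma subunits, which anchor receptors at synapses, Gabrg1 had 11.1 FPKM in cortex and at most 0.199 FPKM elsewhere, and Gabrg3 had 1.32 and at most 0.0460 FPKM. Gabrd, the delta subunit of receptors outside synapses, had 6.96 FPKM in cortex and at most 0.110 FPKM elsewhere.

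The minor GABA-A subunits did not follow this pattern. Gabrr1, whose rho product can form channels on its own and is known from retina, had 1.17 FPKM in muscle, 0.0673 in VAT and 0.0268 in cortex, and was listed at 0 in liver, kidney, SCAT and BAT. Its muscle level stood 2.93 above the second tissue on the log2(FPKM + 0.1) scale. This locus lies opposite to the annotated strand, and the locus on the annotated strand had 0.407 FPKM in muscle, too low for the call. Gabrr2, another rho subunit, had 1.05 FPKM in VAT, 1.05 in muscle, 0.718 in SCAT, 0.189 in cortex, 0.110 in liver, 0.0777 in kidney and 0.0429 in BAT. VAT and muscle could not be ordered by these values, since they were 0.0047 apart on the log2 scale. The muscle acetylcholine receptor gene Chrna1, which shares no locus with Gabrr1, had 7.53 FPKM in the same muscle library. Any relation between the levels of these genes was not tested. Gabre, the epsilon subunit, had 0.811 FPKM in VAT, 0.514 in SCAT, 0.509 in muscle, 0.380 in kidney, 0.230 in BAT, 0.139 in liver and 0.0232 in cortex, so cortex was its lowest tissue. These values lie opposite to the annotated strand, and on the annotated strand Gabre had 0.326 FPKM in VAT, 0.165 in SCAT, 0.0639 in kidney, 0.0194 in muscle and 0.0151 in cortex. Gabrq, the theta subunit, had 0.579 FPKM in cortex and 0.360 in VAT. Gabrp, the pi subunit, was highest in VAT with 0.196 FPKM, and Gabrr3 did not exceed 0.0193 FPKM.

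Both GABA-B genes were enriched in cortex, and both were also found outside it. Gabbr1, the subunit that binds GABA, had 81.4 FPKM in cortex, 2.15 in SCAT, 2.06 in muscle, 1.74 in kidney, 1.69 in VAT, 1.08 in BAT and 0.676 in liver, a log2 ratio of 5.18. Gabbr2, the subunit that couples to the G protein, had 12.6 FPKM in cortex, 2.36 in liver, 0.0804 in VAT, 0.0200 in BAT, 0.0186 in muscle, 0.0168 in kidney and 0.0046 in SCAT, a log2 ratio of 2.37. Liver was therefore the only tissue outside cortex with Gabbr2 above 0.1 FPKM, at 18.8% of the cortex level. Within the same bounds, Trim14 on the annotated strand had 10.1 FPKM in liver, 8.70 in VAT and 7.12 in SCAT, of which Gabbr2 was 23.5%, 0.924% and 0.0653%. Nans had 2.07 and 1.94 FPKM in liver on the 2 strands, and the part of both genes in the Gabbr2 level was not tested. Of the GABA-B total, Gabbr1 held 86.6% in cortex and 95.5% to 99.8% in kidney, VAT, SCAT, BAT and muscle, whereas Gabbr2 held 77.7% in liver. The neuron marker Snap25 was 0.0077 FPKM in the liver library, Stmn2 was listed at 0, Syt1 was 0.812 FPKM (1.58% of cortex) and Map2 was 1.03 FPKM (0.451% of cortex).

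**Figure D2:**
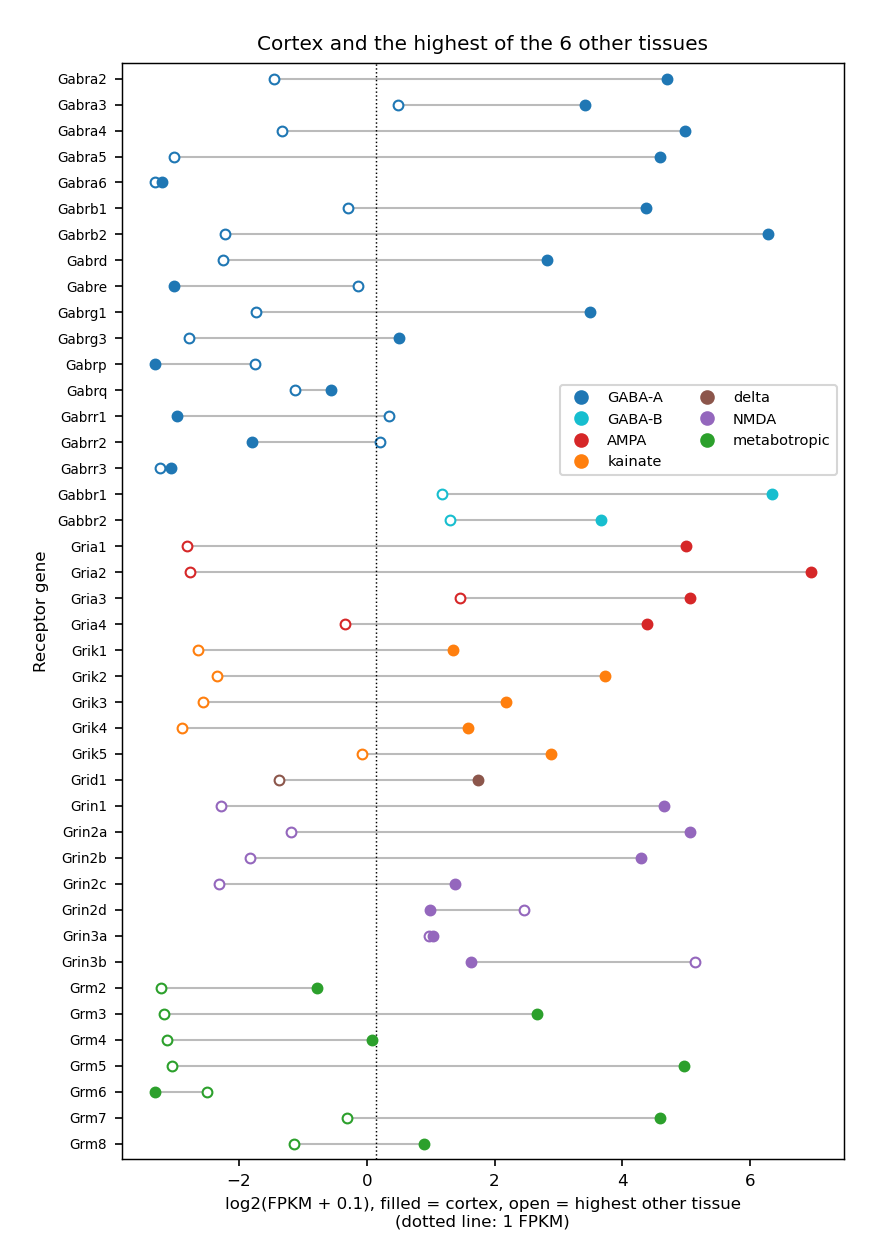
For 42 of the receptor genes, the level in cortex (filled) and in the highest of the 6 other tissues (open) as log2(FPKM + 0.1), colored by receptor class, with a dotted line at 1 FPKM. Of the 42 genes drawn, Gria2 and Gabrb2 have the longest lines, whereas Grin2d, Grin3b, Gabre, Gabrp, Gabrr1, Gabrr2 and Grm6 have the open point to the right of the filled one.

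All 4 AMPA receptor genes, which encode the channels of fast excitation, were enriched in cortex. They summed to 210 FPKM there and to 0.0733% (BAT) to 1.496% (kidney) of this elsewhere. Gria2, the subunit that makes the channel impermeable to calcium, had 124 FPKM in cortex, 59.1% of the AMPA total, and at most 0.0475 FPKM elsewhere (SCAT). Its log2 ratio of 9.72 was the largest of the 47 genes. Gria1 had 31.9 FPKM in cortex and at most 0.0424 FPKM elsewhere, with a log2 ratio of 7.81. Gria3 had 33.1 FPKM in cortex, 2.64 in kidney, 0.855 in SCAT, 0.677 in VAT, 0.586 in muscle, 0.170 in liver and 0.0580 in BAT. Kidney thus reached 7.96% of the cortex level of Gria3, and this gene held 84.0% of the AMPA total of kidney and 97.8% of that of liver. Gria4 had 20.9 FPKM in cortex, 0.691 in VAT and 0.485 in kidney, and it held 48.1% of the AMPA total in VAT.

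The 5 kainate receptor genes were all enriched in cortex, at lower levels. They summed to 30.2 FPKM, of which Grik2, a subunit that forms channels alone, held 43.5% with 13.1 FPKM. Grik5, a subunit that needs Grik1, Grik2 or Grik3 as a partner, had 7.29 FPKM in cortex, 0.850 in liver, 0.573 in VAT, 0.495 in BAT, 0.484 in kidney, 0.466 in SCAT and 0.293 in muscle. It led the kainate receptor genes in each of these 6 tissues and held 72.0% (VAT) to 96.7% (kidney) of their total, against 24.1% in cortex. Zfp574, a zinc finger gene, has a locus within the same bounds and on the same strand, with 0.728 (VAT) to 2.07 FPKM (muscle) in these 6 tissues, of which Grik5 was 14.1% (muscle) to 78.7% (VAT), and its part in the Grik5 values was not tested. Grik3, Grik4 and Grik1 had 4.43, 2.90 and 2.44 FPKM in cortex and at most 0.0694 FPKM elsewhere. The Grik3 value is that of a locus opposite to the annotated strand, and on the annotated strand Grik3 had 0.982 FPKM in cortex, below the minimum for the call. The delta receptor genes, whose products organize synapses and are not opened by glutamate, were low. Grid1 was enriched in cortex, with 3.23 FPKM there and at most 0.287 FPKM elsewhere.

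Of the NMDA receptor genes, 4 of 7 were enriched in cortex. Grin1, the subunit present in every NMDA receptor, had 25.0 FPKM in cortex and at most 0.105 FPKM elsewhere, a log2 ratio of 6.93. Grin2a, read from a locus opposite to the annotated strand, had 33.2 FPKM in cortex, 0.338 in VAT and 0 in the other libraries. Its locus on the annotated strand had 11.2 FPKM in cortex and at most 0.0321 FPKM elsewhere (muscle). Grin2b, the GluN2 subunit that prevails before birth, had 19.5 FPKM and at most 0.182 FPKM elsewhere. Grin2c, mainly known from cerebellum, had 2.50 FPKM in cortex and at most 0.1003 FPKM elsewhere. These genes form the conventional glutamate-binding and glycine-binding parts of the receptor.

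The remaining NMDA receptor genes were above 1 FPKM in every tissue. Each shared its place in the genome with another gene, which was not particular to them. Grin1 shares its bounds with Ssna1 on the same strand, which had 3.61 FPKM in liver, where Grin1 had 0.0387. Grin3b, a glycine-binding subunit known from motor neurons, was read from a locus named for Cnn2, a calponin gene, as well. That locus had 35.0 FPKM in SCAT, 13.4 in VAT, 10.3 in BAT, 8.54 in kidney, 7.66 in liver, 7.40 in muscle and 2.99 in cortex, and the part of Grin3b in it cannot be told apart from that of Cnn2. Grin2d came from a locus shared by name with Syngr4, with 5.40 FPKM in liver, 3.84 in kidney, 3.54 in muscle, 3.37 in BAT, 2.65 in VAT, 2.05 in SCAT and 1.89 in cortex. The locus of Kdelr1 on the other strand within the same bounds had 34.7 FPKM in liver and 9.14 in cortex. The Grin2d locus read 10.6% (muscle) to 20.7% (cortex) of the Kdelr1 locus. Grin3a had 1.95 FPKM in cortex, 1.87 in muscle, 1.66 in SCAT, 1.52 in liver, 1.44 in kidney, 1.32 in BAT and 1.15 in VAT. Within the same bounds, Rnf20, a ubiquitin ligase gene on the other strand, had 4.30 to 7.61 FPKM, and Grin3a read 20.7% (kidney) to 26.6% (VAT) of it in every tissue. The part of Rnf20, Kdelr1 and further genes within the same bounds, such as Grwd1 (Grin2d) and Tmem259 (Grin3b), in these values was not tested. Grin2d and Grin3b were left out of the class totals because their loci carry 2 names, whereas Grin3a was kept.

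Metabotropic glutamate receptor genes were enriched in cortex in 5 of 8 cases. Grm5, a receptor coupled to Gq, had 31.3 FPKM in cortex, 40.8% of the class total of 76.8 FPKM, and at most 0.0210 FPKM elsewhere, a log2 ratio of 8.02. Grm7, a presynaptic receptor coupled to Gi, had 24.1 FPKM in cortex, 0.703 in kidney and 0.101 in VAT. Grm3 had 6.23 FPKM in cortex and at most 0.0106 FPKM elsewhere. Grm8 had 1.76 FPKM in cortex and 0.352 in liver, which is 20.0% of cortex, and its log2 ratio of 2.04 lay just above the limit. Grm4 and Grm2 reached 0.956 and 0.484 FPKM in cortex, below the minimum of 1 FPKM, and at most 0.0148 FPKM elsewhere. Grm6, known from bipolar cells of the retina, was listed at 0 in cortex and did not exceed 0.0773 FPKM (SCAT).

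Outside cortex, 10 of the 47 genes reached 1 FPKM in at least 1 tissue, whereas 65.2% of protein-coding genes did. Among them were Gabbr1, Gabbr2, Gabra3, Gabrr1, Gabrr2, Gria3, Grin2d, Grin3a and Grin3b. Apart from these 3 NMDA receptor genes, Gabbr1 reached this level in 5 tissues, Gabrr2 in 2 and the others in 1 tissue each. Liver had 4 receptor genes at 1 FPKM or more, as did SCAT and BAT, and kidney, VAT and muscle had 6. No receptor gene reached 10 FPKM outside cortex other than through the locus shared by Grin3b and Cnn2.

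**Figure D3:**
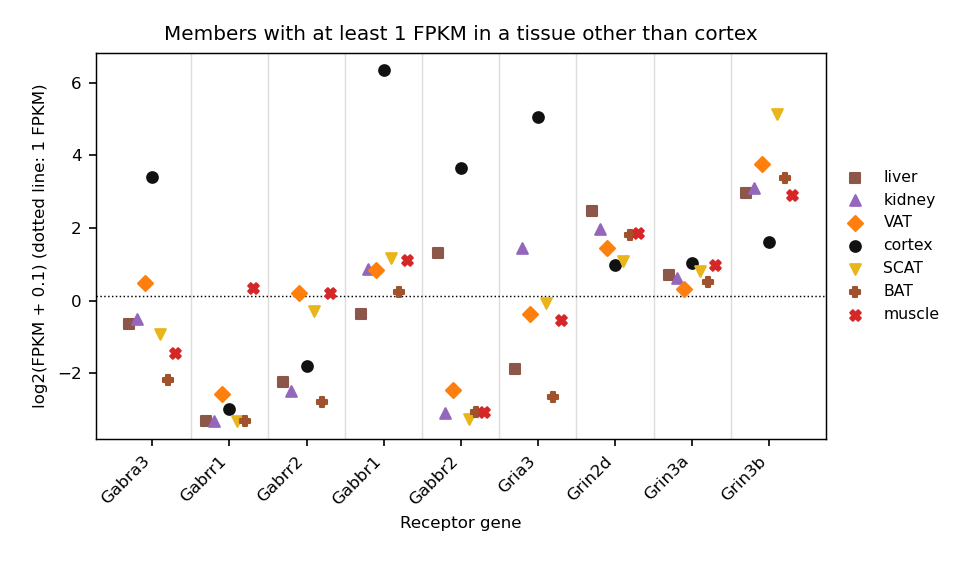
The 9 receptor genes described with at least 1 FPKM in a tissue other than cortex, with the level in each of the 7 tissues as log2(FPKM + 0.1) and a dotted line at 1 FPKM. Cortex (black) lies far above the other tissues for Gabra3, Gabbr1, Gabbr2 and Gria3, close to them for Grin3a, and below at least 1 other tissue for Gabrr1, Gabrr2, Grin2d and Grin3b.

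The neuron markers set a scale for these levels. As a percentage of cortex, they reached at most 7.66% outside it (Stmn2 in SCAT), and Snap25 at most 0.0421%. In kidney, Gria3 stood at 7.96% of cortex, while the 5 neuron markers stood at 0.0055% to 0.962%. In VAT, Gabra3 stood at 12.3% of cortex (20.2% on the annotated strand), while the neuron markers stood at 0.0369% to 4.48%. Whether neurons, other cells or, in VAT, the tissue with epididymis markers carried these transcripts was not tested.

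Many receptor genes had loci on both strands of the same gene. Because strands are not given in the table, each was taken from the row order, in which the loci of a chromosome form 2 ascending series. Over 61921 named loci, counted once per name, 75.3% then lay on the annotated strand. The 47 names were carried by 102 loci, 32 genes had loci on both strands, and the locus with the highest FPKM lay on the annotated strand for 30 genes and on the opposite strand for 17. Among the latter, whose opposite-strand levels are those given above, were Gabbr2, Gabra3, Gabrb2, Gabre, Gabrg1, Gabrp, Gabrq, Gabrr1, Grik3, Grin2a, Grin2b, Grin2c, Grm2, Grm4, Grm6 and Grm7. In cortex, 22 genes had at least 1 FPKM on both strands, with the annotated strand higher for 13 and the opposite strand higher for 9. No like counts were made over all genes. The 75.3% covers every locus rather than the highest of each name, so it is no background for these counts. Gria2 had 124 FPKM on the annotated and 21.2 FPKM on the opposite strand, and Gabbr1 had 81.4 and 11.3 FPKM. In contrast, Grin2a had 11.2 FPKM on the annotated and 33.2 FPKM on the opposite strand, Grm7 had 8.01 and 24.1 FPKM and Gabrb2 had 58.8 and 77.5 FPKM. Levels of single genes, and the order of genes within a class, therefore depend on which strand is read. On annotated loci alone, Grin2a held 20.95% instead of 40.4% of the NMDA total in cortex, and Grm5 held 62.6% instead of 40.8% of the metabotropic total. The muscle level of Gabrr1 was 1.17 FPKM on the opposite strand and 0.407 FPKM on the annotated strand, and the enrichment in muscle was lost on annotated loci.

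**Figure D4:**
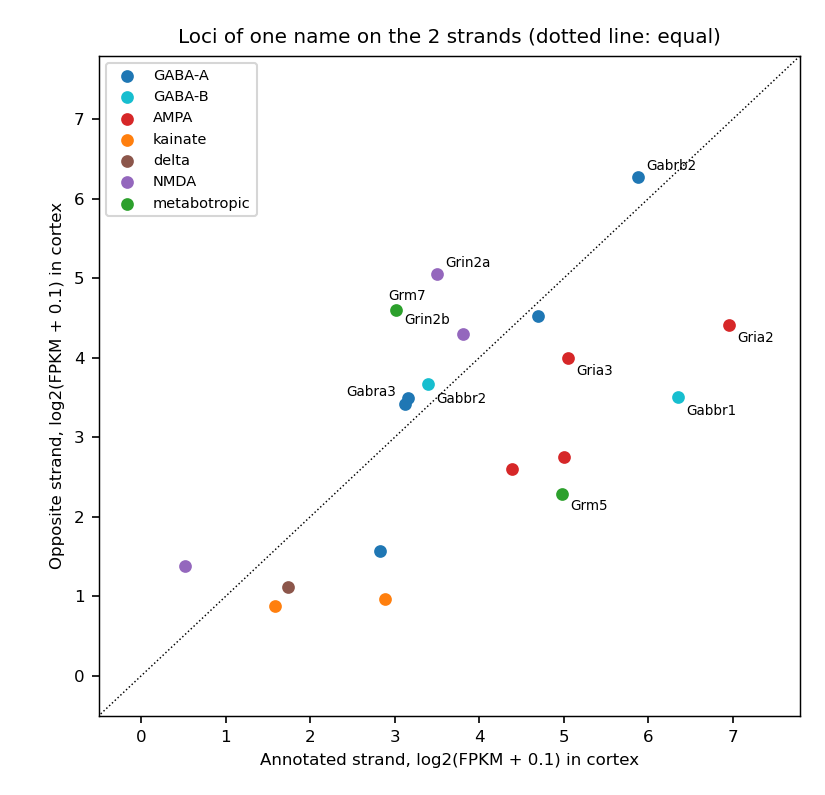
Level in cortex of the loci on the annotated strand (horizontal) and on the opposite strand (vertical), as log2(FPKM + 0.1), for 19 receptor genes with at least 1 FPKM on both. The dotted line marks equal levels, and Grm7, Grin2a, Grin2b and Gabrb2 are among the 8 genes above it.

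Most GABA-A genes lie in clusters, and the members of a cluster could differ. Loci within 2 Mb of each other formed 5 clusters in the GRCm38 coordinates of the table. On chromosome 5 (chr5:70748922-72149037), Gabrg1, Gabra2, Gabra4 and Gabrb1 were all enriched in cortex, with 11.1 to 31.5 FPKM there. In the GENCODE annotation Gabra4 starts at position 71658308 on the minus strand and Gabrb1 at 71658113 on the plus strand, so that the starts lie 195 bases apart. The RefSeq start of Gabrb1, on which the printed window rests, is at position 71657921, which is 387 bases from that of Gabra4. On chromosome 7, Gabrg3 and Gabra5 were enriched as well, with 1.32 and 24.0 FPKM in cortex. On chromosome 11, Gabrb2 was enriched, whereas its neighbour Gabra6 had 0.0085 FPKM. On chromosome X (chrX:72255999-72842602), 1 of 3 genes was enriched in cortex, namely Gabra3, and its neighbours Gabre and Gabrq were below 1 FPKM in every tissue. Neither of the rho genes on chromosome 4 (chr4:33058497-33163746) was enriched in cortex.

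The printed promoter windows of genes enriched in cortex held more CpG than those of the rho genes. Gria2 held 26 CpG, Gabrb1 25, Gabra4 12 and Gabbr2 46, whereas Gabrr1 held 9 and Gabrr2 2. Of the 32 genes, 5 have more than 1 window, and the one listed first was used for all counts. The second window of Gabrb1 held 9 CpG, as many as that of Gabrr1, and the further windows held 9 and 9 for Gabrb2, 10 and 2 for Grm8, 15 for Grm7 and 0 for Gabra3. Over the 21 genes with a window that were enriched in cortex the median was 18 CpG, and 19 of them (90.5%) held at least 10. Over the 11 genes with a window that were not enriched in cortex the median was 4 CpG, and 4 (36.4%) held at least 10. The median over 16522 protein-coding genes was 14 CpG, and 58.9% held at least 10. Among the genes enriched in cortex, Gabra3 (0 CpG) and Gabrg1 (3 CpG) had few CpG. The letters TATAAA, searched on both strands, occurred in 3 of the 32 windows (Gabra3, Gabrb2 and Grin3b), which is 9.38% against 12.9% of all protein-coding windows. The letters TTCAGCACC, the left part of the RE1 motif bound by the neuronal gene silencer REST, occurred in 1 window (Grm2), which is 3.13% against 0.381%. These counts describe letters in a window and name no binding site.

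Genes that make, move or anchor the receptors and their ligands were described from 6 lists with 97 genes in all. Their counts are given beside the 5.74% of protein-coding genes enriched in cortex. Of 9 genes for GABA synthesis and transport, 5 were enriched in cortex, led by Gad1 (133 FPKM), the enzyme that makes GABA from glutamate. The genes of GABA breakdown and of peripheral GABA uptake were highest elsewhere. Abat, the GABA transaminase, had 93.2 FPKM in liver, 53.4 in kidney and 24.7 in cortex, Slc6a13 had 56.6 FPKM in liver and 1.57 in cortex, and Slc6a12 was enriched in liver with 21.8 FPKM, where the background was 2.36%. The GABA receptor gene with the highest level in liver was Gabbr2 (2.36 FPKM), and no GABA-A gene reached 1 FPKM there.

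Of 12 genes for glutamate supply and transport, 3 were enriched in cortex, among them the vesicular transporter Slc17a7 (100.2 FPKM). Slc1a2, the main glutamate transporter of astrocytes, had 93.6 FPKM in cortex and 35.6 in liver. Slc17a8 and Gls2 were enriched in liver, with 16.9 and 78.3 FPKM. Slc1a1, a neuronal and epithelial glutamate transporter, had 47.7 FPKM in kidney and 12.4 in cortex. In kidney this stood beside 2.64 FPKM of Gria3. Of the 6 genes that supply or remove the NMDA receptor co-agonists glycine and serine, 0 were enriched in cortex, a count too small to set against the background of 5.74%.

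Of 12 scaffold and auxiliary subunit genes for GABA receptors, 6 were enriched in cortex (background 5.74%), such as Kctd16 (24.6 FPKM), a partner of GABA-B receptors, whereas Gphn, which encodes the scaffold gephyrin, had 28.9 FPKM in muscle, 28.4 in liver and 17.04 in cortex. Of 30 genes for glutamate receptors, 15 were enriched in cortex, led by Dlg2 (74.5 FPKM) and Dlgap1 (58.6 FPKM) of the postsynaptic density. Homer1, a scaffold of metabotropic receptors, had 39.9 FPKM in cortex and 28.5 in muscle. Among 28 genes of other ligand-gated channels, 5 were enriched in cortex, with the glycine receptor gene Glrb (73.3 FPKM) first. Of the same list, Chrna1 (7.53 FPKM) and Chrne (2.55 FPKM), subunits of the acetylcholine receptor of the muscle endplate, were enriched in muscle (background 2.36%) and P2rx2, an ATP-gated channel, in VAT (7.89 FPKM, background 0.829%). The median log2 ratio of cortex over the highest other tissue was 4.61 for GABA synthesis and transport, 2.57 for the glutamate receptor scaffolds, 1.80 for the GABA receptor scaffolds, -0.15 for other ligand-gated channels, -0.26 for glutamate supply and transport and -1.91 for the glycine site list.

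**Figure D5:**
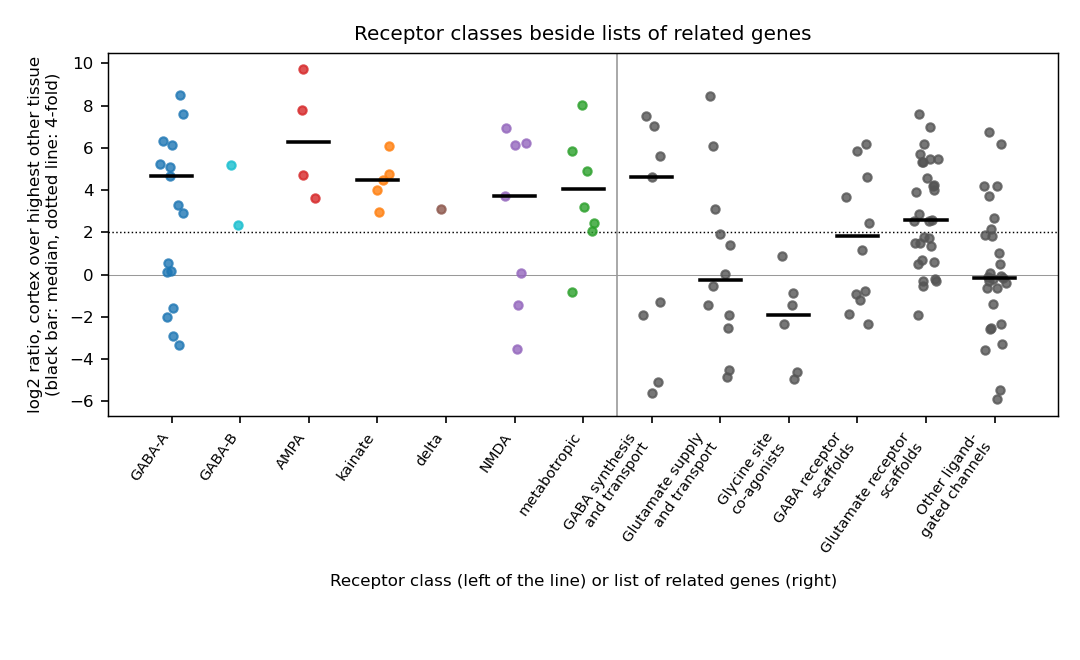
log2 ratio of cortex over the highest of the 6 other tissues (points), for the 7 receptor classes on the left and the 6 lists of related genes on the right, with black bars at the medians over all genes of a class or list (none for GABA-B and delta) and a dotted line at 4-fold. Points of the AMPA and kainate classes all lie above 2, whereas the lists of glutamate supply, glycine site and other ligand-gated channels have medians below 0.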

How the data were processed

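Total RNA was sequenced from 7 tissues of mice, with 1 library per tissue. The authors removed adapters with flexbar and ribosomal reads with Bowtie2, mapped the rest to GRCm38 with STAR, built merged transcript models with Cufflinks, and ran Cuffdiff between tissues. The submitters' processing notes name Bowtie2 2.2.9, STAR 2.6.0c and Cufflinks 2.2.1. The authors deposited gene-level FPKM for 94339 loci in 21 pairwise comparisons, and the scaling between libraries and the library type given to Cuffdiff are not given in the sources used here. The table also holds fold changes, test statistics, p-values and q-values of the authors' comparisons, which were not used. A tissue's FPKM was the same in all 6 of its comparisons.

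Names were split at commas and matched to GENCODE release M21 (GRCm38). Loci with the status FAIL (151) were left out, zeros with the status LOWDATA were taken as missing, and of several loci the one with the highest FPKM was used. None of the 102 receptor loci had either status. Coordinates are bounds of merged loci, counted from 1. Levels were compared as log2(FPKM + 0.1), which understates differences of low values, and enrichment required 1 FPKM and 4-fold, with no call where another tissue was missing. Class totals leave out loci with several names. Ratios of low values gave no common step from which depth could be read, so the precision of single values is unknown. The call rule was tested on simulated data. The receptor genes, lists and rules were chosen with earlier results of these data known. Some genes of the set and lists enter counts, totals and medians but are not reported here, every other receptor gene is accounted for, and of each list the 3 genes highest in cortex and the 3 highest outside it, or defining markers, could be named. Outside this rule, Slc6a12, Slc17a8, Gls2, Slc1a1, Slc1a2, Chrna1, Chrne, P2rx2 and genes sharing a locus with a receptor gene were named after their values were seen. Alternatives covered the pseudocount, the minimum FPKM, the fold, rescaled libraries, the choice of locus and leaving out each library. Python 3.11.15, pandas 2.3.3, NumPy 2.4.6 and matplotlib 3.10.9 were used.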

Additional observations from a re-analysis of the deposited data

Results flagged for a closer look

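In 3 cases a locus that was not used for a receptor gene, because another locus of the same name had a higher FPKM, also reached 1 FPKM outside cortex. The further locus of Gabbr2 on the annotated strand had 1.97 FPKM in liver and 10.4 FPKM in cortex, so that both strands gave Gabbr2 in liver (2.36 FPKM on the opposite strand). The further locus of Gabra3 on the annotated strand had 1.74 FPKM in VAT and 8.60 FPKM in cortex. The further locus of Gria3, opposite to the annotated strand, had 2.12 FPKM in kidney and 15.9 FPKM in cortex. The tissue that was highest outside cortex was thus the same on both strands for Gabbr2, Gabra3 and Gria3. These cases were picked by that level and both loci come from the same library, so the second strand is no independent check.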

How the results depend on the processing

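The count of 33 receptor genes enriched in cortex ranged from 26 to 35 over the alternatives. It was lowest with a minimum of 5 FPKM and 27 with a pseudocount of 1, where Gabrg3, Grid1, Grik1, Grik4, Grin2c and Grm8 were lost. With the 8-fold rule it was 29, and Gabbr2, Gabra3, Grik5 and Grm8 were lost. The count of members enriched in a tissue other than cortex, 1 as reported (Gabrr1 in muscle), was 0 with a pseudocount of 1, a minimum of 5 FPKM, the 8-fold rule, loci on the annotated strand only and without the muscle library. It was 2 with the 2-fold rule, which added Grin3b in SCAT through the locus shared with Cnn2, and 2 among the 6 other tissues without the cortex library, which added Gabbr2 in liver. The 10 genes with at least 1 FPKM outside cortex became 16 at a minimum of 0.5 FPKM and 2 at 5 FPKM. On loci of the annotated strand, an alternative chosen after seeing the data, Grin2a held 20.95% of the NMDA total in cortex and Grm5 held 62.6% of the metabotropic total, and Grik3 was lost from the enriched genes. Of the recomputed summary values 254 stayed within 1.5-fold of the reported value and 11 moved further. Of the log2 ratios of single genes 726 kept their side of the 4-fold limit, 9 no longer passed it and 4 newly did. Changing the minimum FPKM or the fold cannot alter a ratio, so part of the 726 could not have moved. No value of either kind reversed its direction. The median-ratio factors used to rescale the libraries ran from -0.14 (cortex) to 0.15 (muscle) on the log2 scale. Division by them raised levels in cortex, lowered those in muscle and gave 34 genes enriched in cortex. No paired analysis was possible because there is a single library for each tissue. Depth is unknown, which leaves values near 0 without an error.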
